A study of Mus musculus with 6 samples.

Results

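The nuclear-encoded subunits of the oxidative phosphorylation complexes were followed in the mRNA of the newborn mouse telencephalon, in controls (WT) and in mice that lack Tsc1 in the cortex (TSC1), all taken at postnatal day 0. Members were chosen by symbol alone, as the rows named Nduf a, b, c, s or v with a number, Sdh a to d, Uqcr, Cox4 to Cox8 and Atp5, which gave 80 of the 22651 genes in each table. Of these, 32 were assigned to complex I, 4 to complex II, 8 to complex III, 18 to complex IV and 15 to complex V. Ndufa4 and Ndufa4l2 were counted with complex IV, since NDUFA4 is now placed there. The remaining 3 rows, Cox7a2l, Atp5s and Atp5sl, share the naming pattern but are not classical subunits, and were kept apart. Cox8a, Ndufb8, Ndufs8, Ndufv1 and the mitochondrially encoded subunits were not analysed here. Cyc1, a subunit of complex III, and Ndufab1, a subunit of complex I, do not match the naming pattern. They were counted with the carrier genes below.

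The WT mice (n = 3) carried TSC1 flox/flox;Emx1 +/+ and the TSC1 mice (n = 3) carried TSC1 flox/flox;Emx1-cre/+, so the floxed Tsc1tm1Djk allele was present in both groups and Cre in only one of them. Cre was expressed from the Emx1 locus (Emx1tm1(cre)Krj), which is active in the embryonic dorsal cortex, and removed part of Tsc1 there, while the tissue sampled also held ventral telencephalon that Cre does not target. The controls were Cre-negative littermates, and each sample was 1 mouse with 1 library. Total expected counts were between 14119365 and 17772865 per mouse, and 3 counts corresponded to between 0.169 and 0.212 CPM (counts scaled to a common library total). Tsc1 was at 28.4 to 50.2 TPM in WT and 21.7 to 27.1 TPM in TSC1 mice, without overlap (log2 fold change -0.66, SE 0.175, edgeR adjusted p = 0.09998), a gene total that also counts exons outside the deleted part. On the first principal component of all genes (47.8% of the variance), TSC1 replicate 3 lay at -3.96, next to the WT mice (-26.3 to -7.43) and away from the other TSC1 mice (26.6 and 30.3). Results were therefore also computed without it. Bulk tissue was measured, in which fewer cells of a type and less RNA per cell cannot be told apart.

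Oxidative phosphorylation passes electrons from NADH (complex I) and succinate (complex II) through ubiquinone, complex III and cytochrome c to oxygen at complex IV, and complex V, the ATP synthase, uses the resulting proton gradient to make ATP. Most subunits are encoded in the nucleus, and some of complex IV and complex V exist as paired genes of which one is used in most tissues and another in heart, skeletal muscle, lung, testis or under low oxygen. In neurons the pathway supplies most ATP, and nuclear respiratory factors (NRF1), ETS-family factors (GABP), YY1 and estrogen-related receptors (ERR) are known to bind promoters of its genes.

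The members as a class were abundant and most lay slightly below their WT level in TSC1 mice, with quartiles of the log2 fold change at -0.17 and -0.06 and a single gene passing the test. Together they held 2.24%, 2.27% and 2.37% of all TPM (the level of a transcript after division by its length) in the WT mice and 2.13%, 2.19% and 2.26% in the TSC1 mice. The groups overlapped in this share. Of the 80 members, 74 passed edgeR's filter on low counts and were tested. Ndufs5, Cox4i2, Cox7a1, Cox7b2, Cox8b and Cox8c did not. Cox6a2 rose in TSC1 mice and no member fell, at a Benjamini-Hochberg adjusted p below 0.05 over all 13969 genes tested. This made 1 of 74 members called (1.35%), beside 212 of all genes (1.52%), so the share of members called was near that of all genes. The count over all genes depended on single mice, being 447 without WT replicate 1, 29 without WT replicate 2, 35 without WT replicate 3, 37 without TSC1 replicate 1, 37 without TSC1 replicate 2 and 799 without TSC1 replicate 3. Cox6a2 was called in each of these fits, and Cox7a2 was called as well without WT replicate 1.

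Promoters are shown for the widely used partner of Cox6a2, namely Cox6a1, and for the member with the smallest unadjusted p among those not called in each of complexes IV, V and III (Cox7a2, Atp5l and Uqcrh). The RefSeq promoter table (GRCm38.p6, the assembly of mm10) held 65 of the 80 members. Cox6a2, Cox4i1, Cox4i2, Ndufa4l2, Ndufb9, Sdhc, Uqcrc2 and Uqcrq were among those with no entry. Each sequence runs 5′ to 3′ on the gene's strand, which is minus for all 4, over the 250 bases before the start, and capitals mark exact matches to the motifs searched, CCGGAAG (ETS), GCATGCG (NRF1), AAGATGG (YY1) and AAGGTCA (ERR), on either strand.
Cox6a1, chr5:115348959-115349208: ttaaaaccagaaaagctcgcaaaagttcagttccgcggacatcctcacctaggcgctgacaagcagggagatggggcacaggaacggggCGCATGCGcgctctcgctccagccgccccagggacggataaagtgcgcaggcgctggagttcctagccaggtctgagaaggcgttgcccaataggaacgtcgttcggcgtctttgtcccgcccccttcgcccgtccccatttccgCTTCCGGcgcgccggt
Cox7a2, chr9:79759854-79760103: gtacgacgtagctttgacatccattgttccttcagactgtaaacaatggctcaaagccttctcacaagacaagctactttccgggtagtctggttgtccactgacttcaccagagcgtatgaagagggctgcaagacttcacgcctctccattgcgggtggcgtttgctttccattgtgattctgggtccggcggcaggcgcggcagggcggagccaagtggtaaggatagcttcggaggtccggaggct
Atp5l, chr9:44920743-44920992: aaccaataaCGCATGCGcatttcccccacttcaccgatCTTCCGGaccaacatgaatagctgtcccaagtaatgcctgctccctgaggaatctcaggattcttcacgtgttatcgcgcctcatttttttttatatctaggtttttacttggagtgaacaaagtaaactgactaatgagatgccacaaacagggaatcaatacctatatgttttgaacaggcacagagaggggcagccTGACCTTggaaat
Uqcrh, chr4:116075071-116075320: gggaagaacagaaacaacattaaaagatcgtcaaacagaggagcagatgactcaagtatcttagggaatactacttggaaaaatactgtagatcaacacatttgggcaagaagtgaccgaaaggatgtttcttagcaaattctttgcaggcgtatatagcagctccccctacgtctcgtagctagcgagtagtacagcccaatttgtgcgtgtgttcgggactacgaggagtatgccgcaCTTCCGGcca

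Over the 250 bases before and 50 after the start, the ETS motif was found in 14 of 65 members (21.5%), beside 9.93% of all 27025 promoters and 18% of those of genes tested. The NRF1 motif was found in 11 members (16.9%), beside 4.01% of all promoters and 7.16% of those of genes tested. GCATGCG overlaps its own reverse complement by 6 bases, so that in Cox6a1 and Atp5l both strands match within one run of 8. The YY1 motif was found in 11 members (16.9%, beside 7.28% of all and 7.89% of those tested) and the ERR motif in 8 (12.3%, beside 5.38% and 3.88%). Among the printed windows, Cox6a1 held an NRF1 and an ETS match, Atp5l an NRF1, an ETS and an ERR match, Uqcrh an ETS match that begins 10 bases before the start, and Cox7a2 none of the 4 motifs. The Cox7a2 window lies inside the gene's RefSeq span (chr9:79755241-79771422), not at its outer end, so this result covers only that internal start.

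Cox6a2 encodes the heart and skeletal muscle form of subunit 6A of cytochrome c oxidase (complex IV), a small subunit on its outer side, and lies at chr7:128205435-128206366. It was at 1.13, 0.74 and 0.93 TPM in the WT mice (4, 3 and 3 counts) and at 8.31, 13.6 and 11.1 TPM in the TSC1 mice (27, 42 and 39 counts). All TSC1 mice were far above all WT mice. The fitted log2 fold change was 3.48 (SE 0.369, edgeR adjusted p = 0.00391), a fitted ratio of 11.1 between the groups. The WT counts of 3 and 4 lay at or just above the floor of 3 counts, so this ratio rests on a WT level near the floor. The summed counts, 10 against 108, gave an 11.3-fold ratio of CPM with an exact 95% interval of 5.90 to 24.2 that covers counting error only. The gene passed the filter only through its counts in the TSC1 group, and it was also called when no filter was applied (adjusted p = 0.00114). Without TSC1 replicate 3, the mouse nearest to WT, the log2 fold change was 3.46 (adjusted p = 0.00271). DESeq2 gave a log2 fold change of 3.53 (SE 0.634, unadjusted p = 2.54e-08) but no adjusted p, since its own filter on low means set the gene aside, and a filter of at least 10 counts in every sample also removed it.

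The library kit did not keep strand, and the last part of Cox6a2 shares bases with an exon of Itgad on the other strand. Itgad, an integrin of leukocytes, was at 0.00 to 0.09 TPM in all 6 mice, and the part of overlapping reads in the Cox6a2 values was not tested. The gene 9130023H24Rik, 28070 bases away, was higher by TPM in every TSC1 mouse than in every WT mouse. It was not called (log2 fold change 0.36, SE 0.161, edgeR adjusted p = 0.283), and was described after its values were seen. Armc5, a gene 30954 bases away on the same side, was at 10.4 to 12.2 TPM in WT and 11.5 to 13.3 TPM in TSC1 mice. These groups overlapped (log2 fold change 0.14, SE 0.113, adjusted p = 0.552). On the other side, 4931431B13Rik, 2106 bases away, was at 0.00 TPM in all 6 mice. Itgax, 54777 bases away on that side, was at 0.00 to 0.25 TPM, and neither was tested. No near-identical copy of Cox6a2 was found among annotated transcripts. The muscle marker list was low in both groups. Its 16 genes summed to 15.2 to 15.4 TPM in WT and 13.7 to 18.4 TPM in TSC1 mice. Of the 16, 5 were at or under 3 counts in every mouse. Only another 5 passed the filter and were tested, and none of these was called. Ckm, the muscle creatine kinase, was not tested and was at 0.00 to 0.13 TPM in WT and 0.14 to 0.38 TPM in TSC1. The 2 listed genes with the smallest unadjusted p were Myh3 (0.38 to 0.56 TPM in WT, 0.66 to 1.28 TPM in TSC1, adjusted p = 0.186) and Myl4 (2.54 to 3.38 TPM in WT, 4.71 to 4.96 TPM in TSC1, adjusted p = 0.191), both embryonic myosin genes, and neither passed the test. COX6A2 is also known from fast-spiking interneurons of the brain, whose marker Pvalb was listed at 0 in 5 mice and at 0.22 TPM in TSC1 replicate 1. So near 0 in both groups, Pvalb gives no measure of these cells or their precursors at this age. Of the 10 tested genes of the interneuron list, 8 were below 0 (median -0.43). The part of such cells in the Cox6a2 values was not tested.

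The widely used isoforms of complex IV held nearly all of each family's TPM in both groups, and Cox6a2 was the tissue isoform whose share stood higher in TSC1 mice. Cox6a1, its ubiquitous partner, was at 471, 496 and 512 TPM in WT and 421, 500 and 457 TPM in TSC1 mice (log2 fold change -0.15, SE 0.0917, adjusted p = 0.428), with overlapping groups. Cox6a2 therefore made up 0.190% ± 0.0459 (SD, n = 3) of the summed Cox6a TPM in WT and 2.32% ± 0.359 in TSC1 mice, 2.13 percentage points more, without overlap. For 3 mice against 3 the exact permutation test cannot go below p = 0.1, which this share reached (two-sided, 0.4 after adjustment over the 8 shares compared). The Cox6b2 share reached the same exact p without overlap in the other direction, at 0.549% ± 0.122 (SD, n = 3) of the Cox6b TPM in WT and 0.355% ± 0.0240 in TSC1 mice (adjusted over the 8 shares, 0.4).

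**Figure D1:**
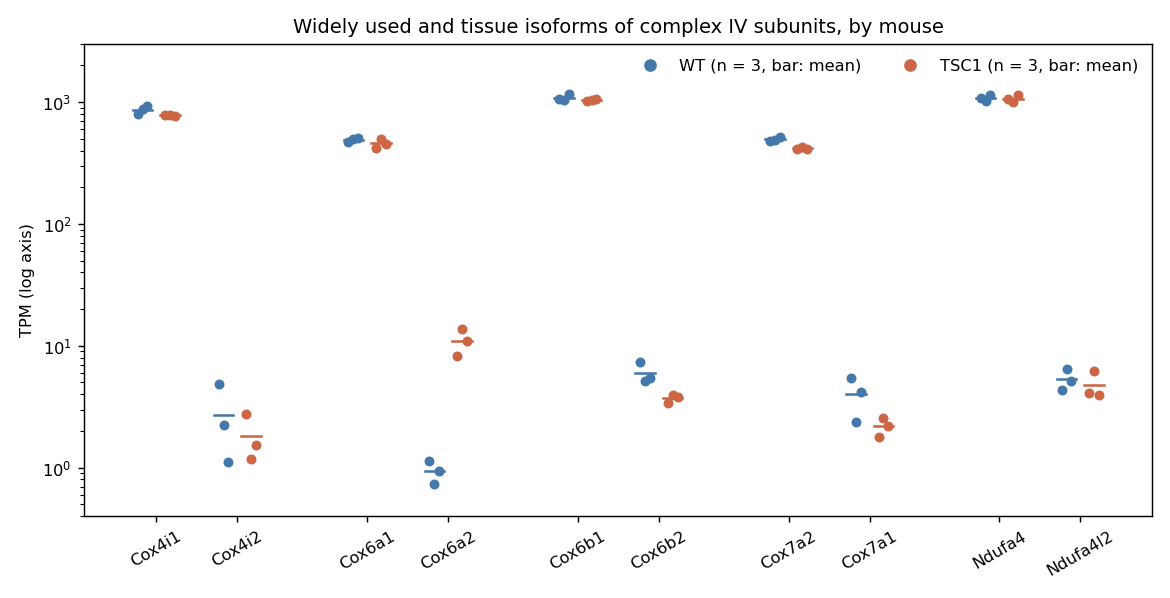
TPM on a log axis of the widely used gene and the tissue isoform of 5 complex IV families in each WT (blue) and TSC1 (orange) mouse, with bars at the means. The 3 TSC1 mice lay at 8.31 to 13.6 TPM for Cox6a2 and the WT mice at 0.74 to 1.13 TPM, while the groups of its partner Cox6a1 overlapped.

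The other tissue isoforms of complex IV were also scarce, and none was called. Cox6b2, the testis form of subunit 6B, was at 7.39, 5.12 and 5.45 TPM in WT and 3.37, 3.96 and 3.80 TPM in TSC1 mice (21, 17 and 14 against 9, 10 and 11 counts). The groups did not overlap (log2 fold change -0.70, SE 0.302, adjusted p = 0.268), and the fold change was below 0. Its partner Cox6b1 was at 1044 to 1155 TPM in WT and 1019 to 1056 TPM in TSC1 mice (adjusted p = 0.441). Cox4i2, the lung form of subunit 4, was at 4.83, 2.23 and 1.11 TPM in WT and 2.76, 1.17 and 1.53 TPM in TSC1 mice, with overlapping groups and no test after the filter. Its partner Cox4i1 was at 796, 882 and 926 TPM in WT and 789, 790 and 770 TPM in TSC1 mice, lower in every TSC1 mouse by TPM but overlapping by scaled counts (log2 fold change -0.19, SE 0.0808, adjusted p = 0.250). Cox7a1, the heart and muscle form of subunit 7A, like Cox6a2 a muscle isoform, was not higher in TSC1 mice. Its counts were 10, 5 and 7 in WT and 3, 4 and 4 in TSC1, a ratio of CPM of 0.522 with an exact 95% interval of 0.229 to 1.12. Cox8b, the muscle form of subunit 8, had 1 count in each group, Cox7b2 had 1 count in WT and 2 in TSC1, and Cox8c had none, so no fold is given for these. Cox7b, the partner of Cox7b2, was at 291 to 315 TPM in WT and 294 to 311 TPM in TSC1 mice (log2 fold change -0.03, SE 0.0725). Ndufa4l2, the hypoxia-induced relative of Ndufa4, was at 4.33 to 6.45 TPM in WT and 3.95 to 6.24 TPM in TSC1 mice (log2 fold change -0.21, SE 0.286, adjusted p = 0.737), while Ndufa4 was the most abundant complex IV gene at a mean of 1072 TPM and differed by -0.08 (SE 0.0810, adjusted p = 0.657).

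Cox7a2, the widely used subunit 7A of complex IV, was the member with the smallest unadjusted p among those not called. It was at 482, 493 and 519 TPM in the WT mice and at 410, 430 and 415 TPM in the TSC1 mice. Every TSC1 mouse was below every WT mouse (log2 fold change -0.29, SE 0.0718, a difference of -18.4%, edgeR adjusted p = 0.0796). The adjusted p was 0.0372 with DESeq2 and 0.0432 with limma on log2(TPM + 1), and between 0.0423 and 0.273 when a mouse was left out. Cox7a2 thus stood at the threshold, on one side or the other by test. Cox7a2l, which is related to Cox7a2 and helps to hold complexes III and IV together, was at 384, 408 and 434 TPM in WT and 360, 350 and 372 TPM in TSC1 mice, again without overlap (log2 fold change -0.22, SE 0.0787, adjusted p = 0.186). It was described after its values were seen.

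**Figure D2:**
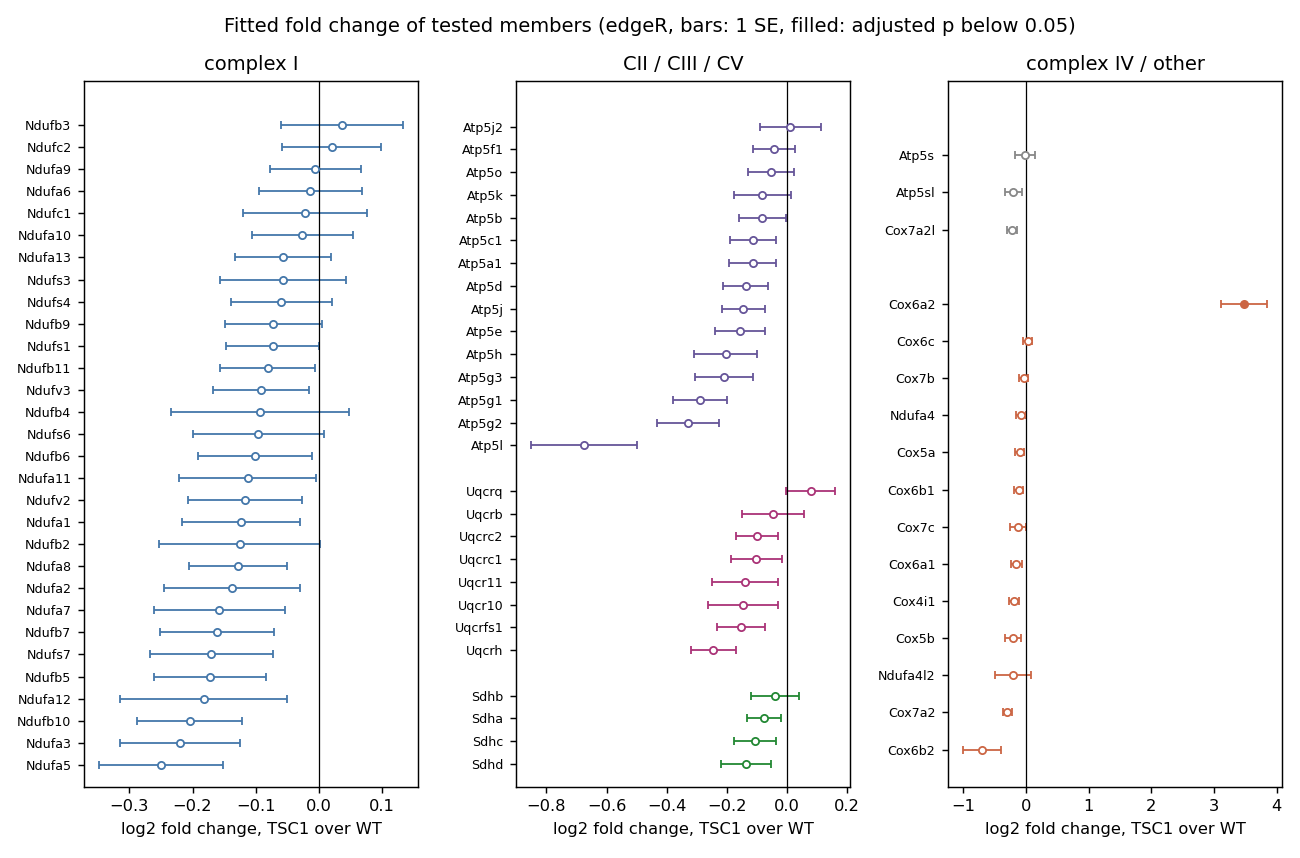
Fitted log2 fold change (horizontal axis, TSC1 over WT, bars 1 SE) of 73 of the 74 tested members by complex, with horizontal axes of different range in the 3 panels. Cox6a2 at 3.48 is the filled point (adjusted p below 0.05), and 6 points lie above 0.

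Complex I holds the largest number of members, and none of its 31 tested genes was called. Their log2 fold changes ranged from -0.25 (Ndufa5) to 0.04 (Ndufb3), with a median of -0.10, and 29 of 31 were below 0. Levels spanned 17.1-fold, from Ndufa11 at 29.0 TPM to Ndufb9, an accessory subunit of the membrane arm, at 494 TPM. Ndufa5, an accessory subunit of the peripheral arm, was at 280, 289 and 328 TPM in WT and 248, 263 and 268 TPM in TSC1 mice, without overlap (SE 0.0981, adjusted p = 0.221). Ndufa3 was at 351, 356 and 394 TPM in WT and 314, 346 and 328 TPM in TSC1 mice (log2 fold change -0.22, SE 0.0954, adjusted p = 0.268). Ndufb10, a membrane arm subunit, was at 238, 225 and 254 TPM in WT and 217, 209 and 215 TPM in TSC1 mice (log2 fold change -0.20, SE 0.0831, adjusted p = 0.238). In all 3 genes, chosen for their small p, every TSC1 mouse was below every WT mouse, and none passed the test. By TMM-scaled CPM such separation held for 4 of the 31 complex I genes (12.9%), near the 11.5% of all genes tested. Ndufb9 itself overlapped (log2 fold change -0.07, SE 0.0771, adjusted p = 0.661).

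Ndufs5, a small accessory subunit of complex I, was listed at 0 in all WT mice and in TSC1 replicates 1 and 2, and at 29.7 TPM (78.71 expected counts) in TSC1 replicate 3. It was the only member with an expected count that was not whole, and it has 1 near-identical pseudogene. The part of that copy in the values was not tested, and no fold is given. It was looked at after its values were seen.

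Complex II, succinate dehydrogenase, was the most even of the complexes. Its 4 genes lay within a 1.86-fold range of TPM and within -0.14 to -0.04 on the log2 scale. Sdha, the flavoprotein, was at 178, 170 and 166 TPM in WT and 169, 169 and 159 TPM in TSC1 mice (log2 fold change -0.08, SE 0.0577). Sdhb, the iron-sulfur subunit, was at 296, 327 and 316 TPM in WT and 303, 303 and 331 TPM in TSC1 (log2 fold change -0.04, SE 0.0806). The membrane anchors Sdhc (log2 fold change -0.11, SE 0.0703) and Sdhd (-0.14, SE 0.0832) were at 174 to 185 and 221 to 237 TPM in WT and 166 to 172 and 205 to 231 TPM in TSC1 mice. Adjusted p-values were between 0.428 and 0.830, and the 95% interval that reached furthest from 0 went from -0.30 to 0.03 (Sdhd).

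In complex III, which passes electrons to cytochrome c, 7 of 8 genes were below 0 with a median of -0.12, and none was called. Uqcrh, the hinge protein and the most abundant of them at a mean of 612 TPM, was at 647, 631 and 682 TPM in WT and 544, 589 and 577 TPM in TSC1 mice. The groups did not overlap (log2 fold change -0.25, SE 0.0749, adjusted p = 0.133). The Rieske iron-sulfur protein gene Uqcrfs1 was at 218, 224 and 228 TPM in WT and 194, 207 and 217 TPM in TSC1 mice (log2 fold change -0.15, SE 0.0788, adjusted p = 0.348). Uqcrc2, a core protein, was at 393 to 415 TPM in WT and 373 to 402 TPM in TSC1 mice (log2 fold change -0.10, SE 0.0708, adjusted p = 0.498). Uqcrq, taken after its value was seen as the single gene of the complex above 0, was at 391 to 408 TPM in WT and 397 to 466 TPM in TSC1 mice (log2 fold change 0.08, SE 0.0811, adjusted p = 0.647).

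In complex V, none of 15 genes was called, 14 were below 0, and 5 (33.3%) had all TSC1 mice below all WT mice by TMM-scaled CPM, namely Atp5g1, Atp5g2, Atp5g3, Atp5h and Atp5l. By TPM, Atp5g3 overlapped and Atp5d and Atp5j did not. Over all genes tested, separation by TMM-scaled CPM held for 11.5%, and for all members for 14 of 74 (18.9%). The reverse, all TSC1 mice above, held for Cox6a2 alone among members (1.35%) and for 11.0% of all genes. Atp5l, which encodes subunit g of the membrane part, was at 25.7, 24.1 and 22.8 TPM in WT and 14.6, 15.4 and 16.8 TPM in TSC1 mice (69, 74 and 56 against 36, 36 and 45 counts). The groups were well apart (log2 fold change -0.67, SE 0.176, a difference of -37.3%, edgeR adjusted p = 0.0938), and limma on log2(TPM + 1) called it (adjusted p = 0.0323). It was the scarcest member of the complex, 74.8-fold below Atp5b, and 9 other annotated genes, 8 of them pseudogenes, were near-identical to its transcript. Its expected counts were whole in every mouse, so they show no division of its reads among genes. Whether the copies affected its values, or did so differently between groups, was not tested.

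The 3 genes for the c ring, Atp5g1, Atp5g2 and Atp5g3, encode the same mature protein and all had fitted fold changes below 0, while the groups overlapped in each gene's share of the family. Atp5g1 was at 108, 118 and 111 TPM in WT and 93.0, 93.8 and 96.2 TPM in TSC1 mice (log2 fold change -0.29, SE 0.0907, adjusted p = 0.142). Atp5g2 was at 123, 141 and 138 TPM in WT and 116, 113 and 102 TPM in TSC1 mice (log2 fold change -0.33, SE 0.104, adjusted p = 0.143), and has 2 near-identical pseudogenes. Atp5g3, the main form, was at 718, 716 and 680 TPM in WT and 548, 708 and 625 TPM in TSC1 mice, which overlap by TPM but not by scaled counts (log2 fold change -0.21, SE 0.0964, adjusted p = 0.292). None of the 3 passed the test. Atp5g3 made up 74.1% ± 1.39 of the family in WT and 75.2% ± 2.59 in TSC1 mice (SD, n = 3, exact permutation p = 0.6). Atp5b, the catalytic beta subunit and the most abundant of all members at a mean of 1489 TPM, was at 1492, 1506 and 1547 TPM in WT and 1398, 1421 and 1568 TPM in TSC1 mice, with overlapping groups (log2 fold change -0.08, SE 0.0793, adjusted p = 0.629).

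Summed by complex, mean TPM in TSC1 mice differed from WT by -5.22% (complex V) to -3.47% (complex II). Complex I summed to 6261 ± 206 TPM in WT and 6042 ± 156 TPM in TSC1 mice (SD, n = 3 each), complex II to 893 ± 23.2 and 862 ± 20.8, complex III to 2501 ± 75.7 and 2381 ± 102, complex IV to 5754 ± 262 and 5486 ± 141, and complex V to 7100 ± 122 and 6729 ± 262. The groups overlapped in complexes I to IV, and in complex V each TSC1 sum was below each WT sum. Differences of this size were near the spread between mice. Leaving out WT replicate 3 moved them to -1.66% in complex I, -3.11% in complex III and -2.09% in complex IV, leaving out WT replicate 2 moved complex II to -2.18%, and leaving out TSC1 replicate 1 moved complex V to -3.14%. The sums carry no test.

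**Figure D3:**
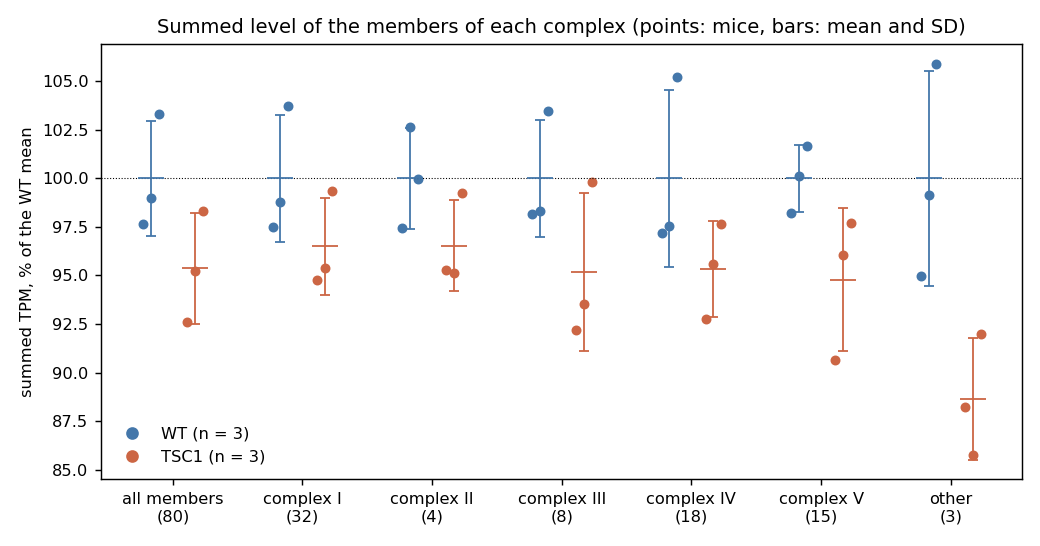
Summed TPM of the members of each complex in each mouse as a percentage of the WT mean (points, with mean and SD), on an axis that does not start at 0. TSC1 means differed from WT by -5.22% to -3.47% for complexes I to V, and the groups were apart for complex V and for the 3 genes outside the complexes.

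The direction was shared by most members although the size was small. Of the 74 tested members 68 (91.9%) had a log2 fold change below 0, beside 50.7% of all genes tested, and their median was -0.11 beside -0.0027. At an unadjusted p below 0.05, 11 members (14.9%) were lower, beside 8.93% of all genes, and 1 (1.35%) was higher, beside 9.04%. By complex the medians were -0.10 (I), -0.09 (II), -0.12 (III), -0.12 (IV) and -0.14 (V). Leaving out a mouse moved the median of the members between -0.16 (without WT replicate 1) and -0.07 (without WT replicate 3) and the number below 0 between 61 and 73, so the size rested in part on single mice.

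Transcript length moved with this direction. The tested members were short, with a median of 679 bases beside 2890 for all genes tested, and other short genes also lay mostly below 0. Among the other genes tested, the median log2 fold change was -0.18 under 600 bases (167 genes, 78.4% below 0), -0.10 from 600 to under 1000 (669 genes, 68.9%), -0.03 from 1000 to under 3000 (6413 genes, 56.6%) and 0.04 above that (6646 genes, 42.0%). The members in the same classes had medians of -0.12 (32 genes, 87.5% below 0), -0.14 (19 genes, 89.5%) and -0.08 (23 genes, 100%). Members under 600 bases were thus less far below 0 than other genes of that length, and the longer members further. The libraries also differed in the length that RSEM subtracted from each transcript, 46.8 to 50.7 bases in WT and 56.1 to 58.6 in TSC1 mice, without overlap. With effective lengths as offsets the median of the members was -0.10 and 66 of 74 were below 0. The part of library length in the remaining difference was not tested.

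**Figure D4:**
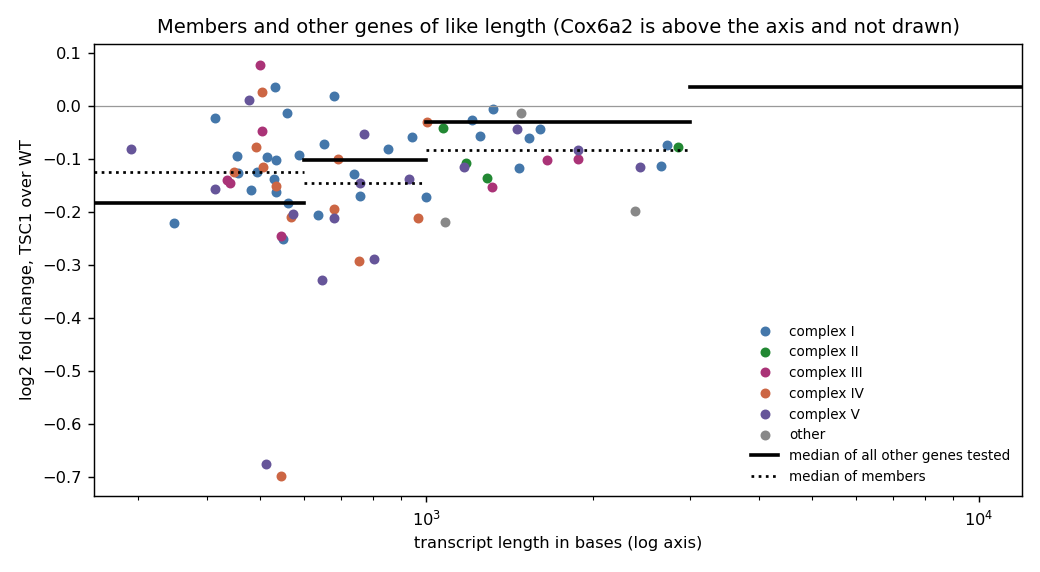
Log2 fold change of 73 tested members (points coloured by complex, Cox6a2 left out) against transcript length on a log axis, with the median of all other genes tested (solid) and of the members (dotted) in classes of length. The solid line runs from -0.18 under 600 bases to 0.04 for the longest genes.

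Genes that work with the complexes did not pass the test in either direction. None of 19 tested carrier genes (cytochrome c, ubiquinone synthesis and other electron donors) was called, with 7 below 0 and a median of 0.06. The carrier list also holds Cyc1 and Ndufab1, which are subunits of complexes III and I. Coq10a, a ubiquinone-binding protein (log2 fold change 0.23, adjusted p = 0.248), and Gpd2, the mitochondrial glycerol phosphate dehydrogenase (0.19, adjusted p = 0.258), had the smallest unadjusted p. None of 41 assembly factors was called, with 20 below 0 and a median of 0.01, and Cox20, a chaperone of complex IV, at -0.39 (adjusted p = 0.191) and Cox16 at -0.32 (adjusted p = 0.261) had the smallest p. Among 22 genes of mitochondrial biogenesis and mitochondrial DNA upkeep, 15 were below 0 with a median of -0.08, and Polg, the mitochondrial DNA polymerase, was at 20.1 to 23.4 TPM in WT and 25.6 to 28.2 TPM in TSC1 mice (log2 fold change 0.27, adjusted p = 0.155), with Lrpprc, which stabilises mitochondrial mRNA, at 0.17 (adjusted p = 0.194). Among 18 genes of the citric acid cycle, 10 were below 0 with a median of -0.02, and Idh3g (-0.31, adjusted p = 0.118) and Suclg2 (-0.55, adjusted p = 0.155) had the smallest p. Of 17 genes of mitochondrial membranes and import, 16 were below 0 with a median of -0.10, including Phb (-0.28, adjusted p = 0.180) and Tomm20 (-0.18, adjusted p = 0.298). The medians of the assembly factors and the carriers were thus above 0, at median transcript lengths of 1451 and 1731 bases. Those of the other lists were below 0, at 1512 bases for the membrane and import genes, 2341.5 for the citric acid cycle and 3356 for the biogenesis genes.

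Markers of other cell types were summed beside these values. Choroid plexus markers summed to 1195 to 2504 TPM in WT and 39.7 to 884 TPM in TSC1 mice (12 of 12 below 0), endothelial markers to 222 to 292 and 189 to 220 TPM, mural cell markers to 207 to 270 and 175 to 213 TPM, and blood markers to 1695 to 5568 and 1293 to 1783 TPM. The groups overlapped for mural and blood markers and did not for choroid plexus and endothelial markers, and no gene of these 4 lists was called. The smallest unadjusted p among choroid plexus markers were those of Aqp1 (log2 fold change -1.89, adjusted p = 0.0610) and Folr1 (-2.06, adjusted p = 0.0637). Of 10 interneuron markers tested, 8 were below 0 (median -0.43), and Lhx6 (log2 fold change -0.54, adjusted p = 0.0203) and Slc32a1 (-1.19, adjusted p = 0.0479) fell, where 1.52% of all genes were called. Of 13 telencephalon markers, 8 were below 0 (median -0.06), and Bcl11b, Gad1, Gad2 and Dlx1 fell (-0.56, -0.83, -1.03 and -0.68, adjusted p 0.0479, 0.0479, 0.0318 and 0.0183 with edgeR). Telencephalon markers summed to 9657 to 9984 TPM in WT and 9449 to 10626 TPM in TSC1 mice. The part of these cell types in the members' values was not tested.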

How the data were processed

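The mRNA-sequencing of telencephalon from 3 WT and 3 TSC1 mice was read from 1 table per mouse, with groups from the genotype labels and replicate numbers from the titles. Libraries were made with a kit that does not keep strand. After a check with FastQC and trimming, the authors mapped the reads to mm10 (MapSplice2) and estimated gene levels over RefSeq transcripts (RSEM 1.2.12). The RefSeq release is not given in the sources used here. The deposited expected counts are RSEM's estimates of the reads of each gene, not normalized. The deposited TPM and FPKM were computed by the authors' run of RSEM from counts and effective lengths.

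The rounded expected counts of all genes entered an edgeR fit (version 4.0.16, R 4.3.3, TMM, filterByExpr, quasi-likelihood test, Benjamini-Hochberg adjustment over all genes tested, threshold 0.05), and the members' rows were then read. The study's own test rests on permuted samples and was not rerun. The 95% intervals of log2 fold changes were taken from the fit's standard errors by a normal approximation, which makes them somewhat narrower than the test itself would give. Single shares were compared by two-sided exact permutation tests. Alternatives were RLE and upper-quartile scaling, DESeq2 1.42.0, limma 3.58.1 on log2(TPM + 1) or log2(TPM + 0.1) for genes with at least 1 TPM in 3 samples, no filter, at least 10 counts in every sample, effective lengths as offsets, a replicate block, and each mouse left out in turn. Near-identical genes had a GENCODE transcript matching at least 95% of bases over at least 50% of the member's length. Totals of 14119365 to 17772865 counts per mouse set the floor of 3 counts, and the exact intervals of summed counts cover counting error only. Positions are from RefSeq and GENCODE on GRCm38, counted from 1. The edgeR, DESeq2 and limma fits were tested on simulated counts before use.

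The members and lists were chosen with earlier results of these data known. Named are members called, the 3 smallest unadjusted p and the highest TPM in each complex, the isoform families, the Sdh genes and, in other lists, called genes or the 2 smallest p. Most members not named by these rules are given by counts and ranges. Ndufa11 and Ndufb3 were named as ends of a range, and Atp5d, Atp5h and Atp5j for groups that did not overlap, all after their values were seen. Others are marked in the text as chosen after their values were seen.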

Additional observations from a re-analysis of the deposited data

How the results depend on the processing

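The number of all genes called was 212 as reported, 641 with DESeq2, 346 without a filter, 551 with the replicate block, and between 29 and 799 when a mouse was left out. The number of members called was 1 as reported, 3 with limma on log2(TPM + 1) and on log2(TPM + 0.1) (Atp5l, Cox6a2 and Cox7a2), 2 with the replicate block (Cox6a2 and Cox7a2), 0 with at least 10 counts in every sample, which removes Cox6a2, and between 1 and 2 when a mouse was left out. DESeq2 called 1 member, Cox7a2, and gave no adjusted p for Cox6a2. The replicate numbers were not shown to pair the mice, since deviations from the group means correlated at 0.267, -0.133 and 0.318 for numbers 1, 2 and 3, and not every mouse correlated best with its own number.

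The median log2 fold change of complex I was -0.10 as reported, -0.048 with limma at either pseudocount, and between -0.148 and -0.044 when a mouse was left out. Cox7b turned from -0.03 to 0.007 with limma at either pseudocount, to 0.020 without WT replicate 3 and to 0.008 without TSC1 replicate 1 (between -0.055 and 0.020 when a mouse was left out), and was not called in any of these. With FPKM in place of TPM the summed difference was -7.98% for all members. By complex it was -6.91% (I), -6.86% (II), -8.14% (III), -8.05% (IV) and -8.55% (V). With TMM-scaled CPM it was -7.13% for all members and between -8.12% (complex IV) and -5.75% (complex II). Each was further from 0 than by TPM. The Cox6a2 share differed by 2.67 points with TMM-scaled CPM in place of 2.13. The shares of Cox4i2, Ndufa4l2 and Atp5g1 changed sign by less than their spread when 1 mouse was left out. Of the 25 members refitted under the alternatives, Cox7a2 and Atp5l were also called under those given above and, for Cox7a2, with DESeq2 and without WT replicate 1. Cox6a2 had no call with DESeq2 or the filter of 10 counts, and Cox6b2 was not compared under them. Where compared, Cox6b2 and the others, Cox7b apart, kept their direction and side of the threshold. In a window from 150 bases before the start, 20% of members held the ETS, 13.8% the NRF1, 16.9% the YY1 and 9.23% the ERR motif.

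At a few counts per mouse, the intervals of the tissue isoforms were wide, as for Cox7a1 (0.229 to 1.12). The smallest exact permutation p for 3 mice against 3 was 0.1.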
